A study of Mus musculus with 8 samples.

Results

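The SMAD family genes are described here by the deposited rows whose gene name is Smad1, Smad2, Smad3, Smad4, Smad5, Smad6, Smad7 or Smad9, which are 8 of 24346 gene symbols and 11 of 34535 transcript rows. RNA of uterine epithelium was sequenced as 3 control and 5 cKO libraries, from mice on a mixed C57BL/6/129S6/SvEv background. The cKO mice carried Smad2 flox/flox, Smad3 flox/flox and the Pgr-cre knock-in allele, in which Cre recombinase is made from the progesterone receptor locus. The labels call the other mice control and name none of their alleles. Per the labels, Pgr-cre acts after birth, and also in the ovary, oviduct, mammary gland and pituitary gland. Age, cycle stage and the means of isolating the epithelium do not appear in the labels used here. Nor do the labels state whether 1 mouse gave 1 library. The p-values therefore describe only how these libraries scatter, and some of that scatter may be technical.

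SMAD proteins carry signals of the TGF-beta family from receptors at the cell surface to genes in the nucleus. SMAD2 and SMAD3 are phosphorylated by TGF-beta and activin receptors, SMAD1, SMAD5 and SMAD9 by BMP receptors, and both sets bind the common partner SMAD4 before they act on genes. SMAD6 and SMAD7 are inhibitory members whose genes are themselves switched on by the pathway, a negative feedback. In the uterus, BMP and activin signals take part in implantation and decidualization.

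Per the labels, the loxP sites of Smad2 flank exons 9 and 10, and those of Smad3 flank exons 2 and 3. Counted along the annotated transcripts, which assumes that the labels number exons in the same way, they are coding sequence throughout. The 2 exons of Smad2 (of 11) hold 283 bases, or 3.23% of the 8752 bases over which its FPKM is computed, and the 2 exons of Smad3 (of 9) hold 326 bases, or 6.40% of 5090. The annotated Smad2 transcript along which exons were counted has 8089 bases, fewer than those 8752, while for Smad3 both have 5090. The 283 and 326 floxed bases leave a remainder when divided by 3 (1 and 2 bases), so their loss shifts the reading frame. The 2 floxed exons of Smad3 are printed because they are the part of the gene that Cre removes. Exon 2 lies at chr9:63667729-63667922 and exon 3 at chr9:63667475-63667606 on GRCm38, minus strand. In the last sequence, a join of exon 1 to exon 4 that would follow if splicing skipped the removed exons, capitals mark the first 15 bases of exon 4. The reading frame across that join meets a stop after 77 codons, where the annotated protein has 425. The join was built from the annotation, not measured.
Smad3 exon 2: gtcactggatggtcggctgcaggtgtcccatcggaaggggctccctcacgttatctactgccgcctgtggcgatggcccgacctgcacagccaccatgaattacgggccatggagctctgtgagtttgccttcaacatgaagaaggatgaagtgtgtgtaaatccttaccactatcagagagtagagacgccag
Smad3 exon 3: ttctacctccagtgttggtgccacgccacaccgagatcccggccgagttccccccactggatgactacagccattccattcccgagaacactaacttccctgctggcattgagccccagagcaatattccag
Smad3 exon 1 joined to exon 4: cattaccatccccagAAACCCCACCTCCTG

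**Figure D1:**
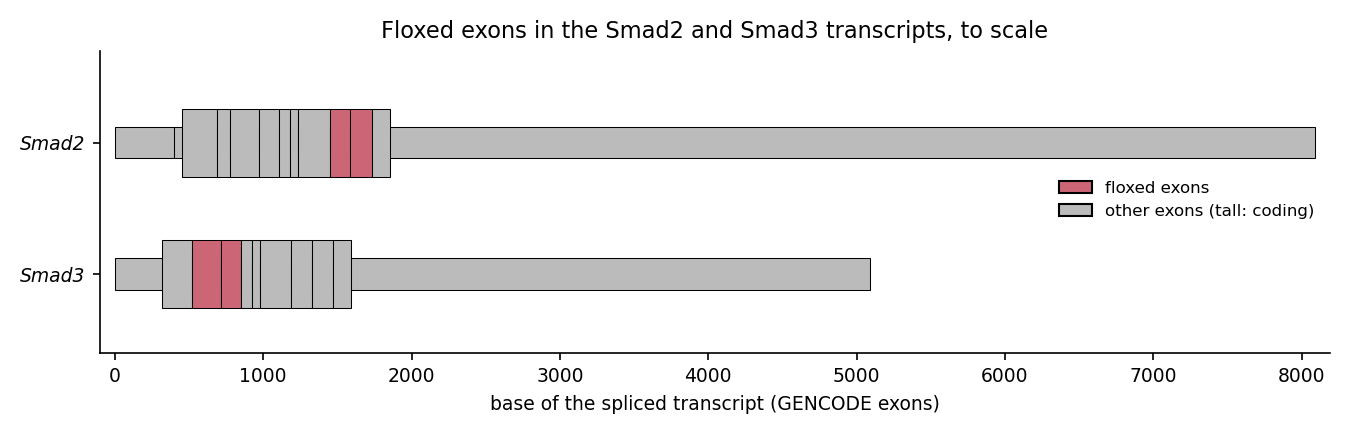
Exons of the Smad2 and Smad3 transcripts drawn to scale along the spliced transcript (x axis, bases), with coding sequence as tall boxes and the floxed exons in red. The floxed exons are 283 bases of Smad2 and 326 bases of Smad3, and the last exon alone makes up 78.6% and 71.1% of the annotated transcripts (8089 and 5090 bases).

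The 8 libraries were of like depth, estimated from the width of the deposited intervals at 42.6 to 53.5 M mapped fragments, and the tables give no counts. Levels are given as scaled FPKM, the authors' fragment numbers per transcript length and library size after a further median-ratio scaling between libraries. All 10 epithelial markers passed the filter on low values (at least 1 scaled FPKM in at least 3 libraries), with summed levels of 4930 to 5324 scaled FPKM in control and 4075 to 6790 in cKO, and none was called. Control 1 stood apart in smooth muscle markers (summed level 374, against 63.1 and 104 in the other controls and 15.6 to 120 in cKO). Stromal markers summed to 114 to 257 in control and 57.2 to 251 in cKO, neutrophil markers to 208 to 399 and 295 to 1966, and proliferation markers to 6.84 to 10.8 and 7.34 to 210. Of 7 tested stromal markers 1 was called lower (median log2 fold change -0.72), and of 5 tested neutrophil markers 1 was called higher (1.83). No smooth muscle or proliferation marker was called, at medians of -1.07 and 1.81. Of all tested genes 14.3% were called. All 6 ovary markers were under 1 in every library, with Cyp19a1 and Fshr at 0. The titles of cKO 1 and cKO 2 follow a numbering of their own, apart from the main title series of the remaining 6 libraries, and no label calls this a batch.

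In control epithelium the SMAD genes spanned a wide range of levels. FPKM is scaled by the annotated transcript length, so levels compare between genes only as far as that length is the one expressed. That was not tested, and the order of genes and the shares between genes rest on it. Smad3 was the most abundant at 28.2 ± 3.07 scaled FPKM (SD, n = 3), above Smad4 at 17.1 ± 1.20, Smad1 at 14.4 ± 1.55 and Smad5 at 8.97 ± 0.832. Smad7 at 6.22 ± 0.664 and Smad2 at 6.07 ± 0.342 followed, then Smad6 at 3.70 ± 0.317, with Smad9 at 0.0109 ± 0.00164. The ranges of neighbours in this order overlapped only for Smad7 and Smad2. By the mean over all libraries, cKO included, Smad3 stood at percentile 81.2 and Smad2 at percentile 28.9 of all tested genes. Of the FPKM of Smad2 and Smad3 together, Smad2 gave 17.8% ± 1.45 in control. In cKO the order was Smad3, Smad1, Smad4, Smad5, Smad7, Smad6, Smad2 and Smad9, with Smad2 now below Smad6 in every pair of cKO libraries, and neighbouring ranges overlapped for Smad3 and Smad1, Smad1 and Smad4, Smad5 and Smad7, and Smad7 and Smad6.

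Of the 8 genes, 7 passed the filter on low values (all but Smad9). Smad2 was lower and Smad1 was higher in cKO by limma, a linear model fitted across all genes on log2(scaled FPKM + 1), where a call is a Benjamini-Hochberg adjusted p below 0.05. The other 5 tested members did not pass. Fold changes on this scale understate the change of low genes. The 2 calls among 7 compare with 14.3% of all 11315 tested genes that were called (7.27% higher, 6.98% lower). The median log2 fold change was 0.08 over the 7 members, where that of all tested genes was 0.00 to 2 decimals. The groups did not overlap for 3 of the 7, Smad2 (lower), Smad1 and Smad6 (both higher), against 24.6% of all tested genes (12.9% lower, 11.7% higher). The other 4, Smad3, Smad4, Smad5 and Smad7, had log2 fold changes within 0.2 of 0, as did 45.4% of all tested genes.

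**Figure D2:**
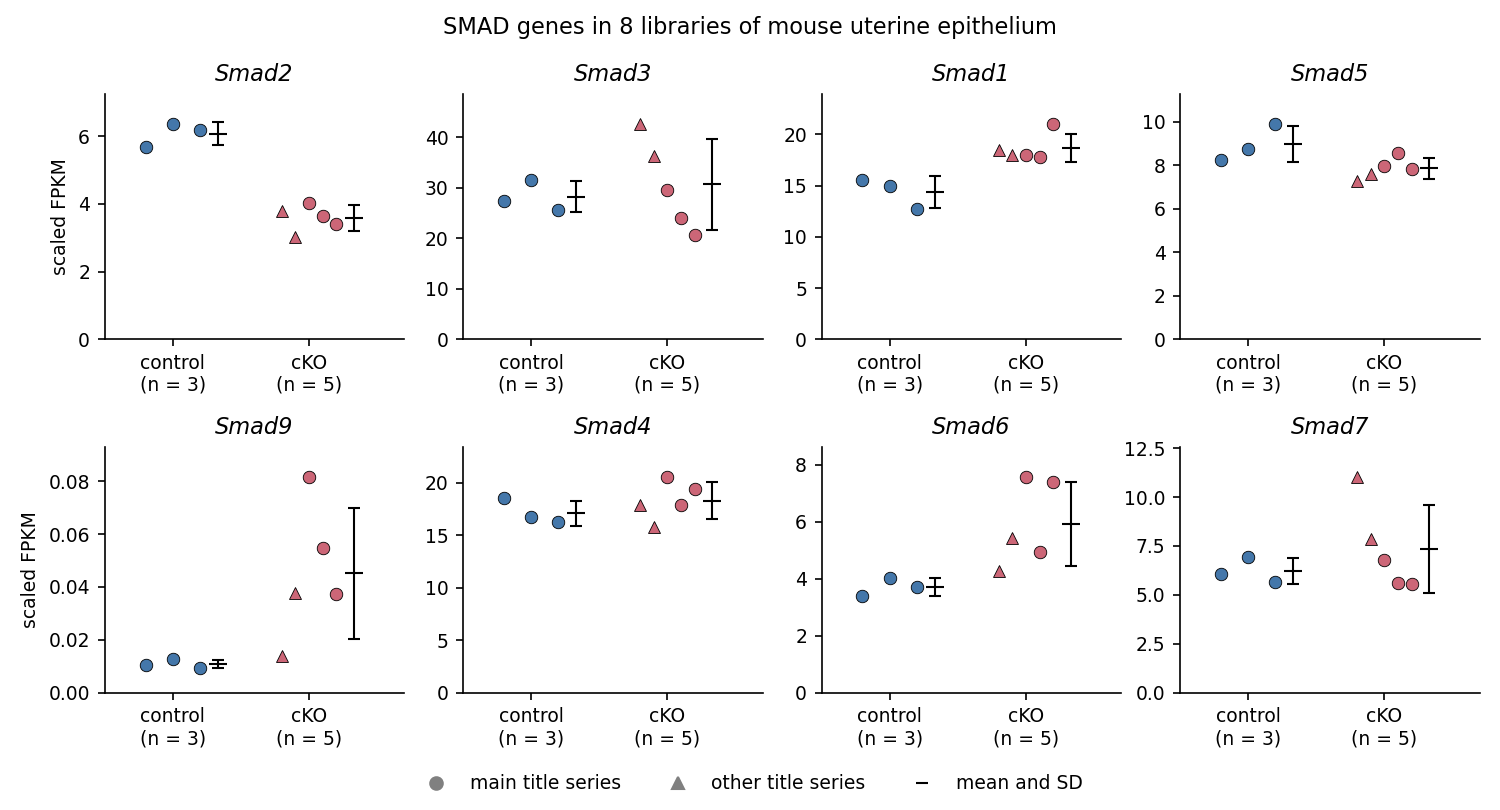
Scaled FPKM (y axes, each from 0) of the 8 SMAD genes in each control (blue) and cKO (red) library, with triangles for cKO 1 and cKO 2, whose titles are numbered apart, and black marks for the group mean and SD. All cKO values of Smad2 lie below the controls and all of Smad1 and Smad6 above them, while the cKO values of Smad3 run from 20.6 to 42.6, on both sides of the controls.

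Of the genes that carry TGF-beta and activin signals, Smad2 (chromosome 18, 76241701 to 76311747) fell to 58.9% of its control mean. Its scaled FPKM was 5.69, 6.35 and 6.18 in the controls (1 to 3 in turn) against 3.79, 3.03, 4.02, 3.63 and 3.41 in the cKO libraries (1 to 5 in turn). Every cKO library lay below every control, and none approached 0. In bulk RNA such as this, fewer cells of a type and less RNA per cell cannot be told apart. The log2 fold change was -0.63 ± 0.10 (SE; 95% interval -0.86 to -0.40), with a limma adjusted p of 0.00550. By exact permutation p was 0.0179, the lowest value possible with 3 and 5 libraries. Smad2 was called lower under all 19 alternatives, with log2 fold changes of -0.90 to -0.58. The -0.90 was with TPM, and relative to the median of all tested genes with TPM it was -0.69.

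Smad3 (chromosome 9, 63646767 to 63757994), also a target of the deletion, did not pass at the gene level. It measured 27.4, 31.5 and 25.6 scaled FPKM in the controls (1 to 3 in turn) and 42.6, 36.4, 29.6, 24.0 and 20.6 in the cKO libraries (1 to 5 in turn). Both cKO 1 and cKO 2, which are numbered apart (mean 39.5), lay above all controls. Of the 3 cKO libraries in the main title series (mean 24.8), 2 lay below all controls. The log2 fold change was 0.08 ± 0.22, with a 95% interval of -0.42 to 0.58 (limma adjusted p = 0.837; exact permutation p = 0.768), and its direction was not stable: without cKO 1 and cKO 2 it was -0.18, and without cKO 1 alone -0.05. Because most of the transcript lies outside the floxed exons, the gene-level value does not check the labels. The cKO values differed by 2.07-fold from lowest to highest, where the controls differed by 1.23-fold and the deposited interval of a single Smad3 value was within 2.78% of it. With the title series as a term in the fit, the log2 fold change of Smad3 was -0.19. The series numbered apart holds no control, so this term sets cKO 1 and cKO 2 aside and is not a separate check.

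The log2 level of Smad2 minus that of Smad3 was -2.08, -2.15 and -1.89 in the controls (1 to 3 in turn) and -3.19, -3.21, -2.61, -2.43 and -2.30 in the cKO libraries (1 to 5 in turn). This difference was lower in every cKO library than in any control. The fold changes of Smad2 and Smad3 differed by -0.71, which did not pass (exact permutation p = 0.0536; adjusted p = 0.0804 over 3 gene pairs), and it was -0.41 without cKO 1 and cKO 2. With 3 pairs, 1 pair alone at the smallest p gives an adjusted p of 0.0536, so this test could pass only if several pairs did. The share of Smad2 in the summed FPKM of Smad2 and Smad3 was 16.8% to 19.5% in control and 7.69% to 14.2% in cKO. The sum itself was 34.2 ± 3.25 in control and 34.3 ± 8.99 in cKO.

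Among the genes that carry BMP signals, Smad1 (chromosome 8, 79338398 to 79399468) rose. Its scaled FPKM was 15.6, 15.0 and 12.7 in the controls (1 to 3 in turn) against 18.5, 18.0, 18.0, 17.8 and 21.0 in the cKO libraries (1 to 5 in turn). All cKO libraries were above all controls, with 4 of them within 1 scaled FPKM of each other. The log2 fold change was 0.35 ± 0.10 (limma adjusted p = 0.0444; exact permutation p = 0.0179, the smallest possible), and the group means differed by 1.29-fold. This call lay close to the threshold: it was lost in 15 of 19 alternatives (adjusted p 0.0185 to 0.314 over all of them), though the direction held in each. With TPM the log2 fold change of Smad1 was 0.16 (limma adjusted p = 0.314). TPM moved the median of all tested genes to -0.20, and relative to that median Smad1 was at 0.37. With the title series as a term its log2 fold change was 0.37 (limma adjusted p = 0.0653). The call was lost without any 1 of the 8 libraries (log2 fold change 0.27 to 0.41), and when stromal and muscle marker levels entered the fit (0.39, limma adjusted p = 0.109).

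Smad5 (chromosome 13, 56703010 to 56742378), whose protein shares most of its role with SMAD1, did not pass. It measured 8.26, 8.77 and 9.89 scaled FPKM in the controls (1 to 3 in turn) and 7.30, 7.58, 7.97, 8.59 and 7.85 in the cKO libraries (1 to 5 in turn), with 1 cKO library inside the control range. The log2 fold change was -0.17 ± 0.09 (95% interval -0.37 to 0.04; limma adjusted p = 0.230). It was -0.10 without control 3 and -0.38 with TPM, neither past the threshold. Relative to the median of all tested genes with TPM, Smad5 was at -0.18. The fold changes of Smad1 and Smad5 differed by 0.52, and the log2 difference between the genes was larger in every cKO library than in any control. The test of that difference gave the smallest p possible and still missed the threshold after adjustment (exact permutation p = 0.0179; adjusted p = 0.0536). Smad1 made up 61.5% ± 4.81 of the summed FPKM of Smad1, Smad5 and Smad9 in control and 70.2% ± 2.14 in cKO, while the sum was 23.4 ± 0.730 and 26.6 ± 1.33.

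Smad9 (chromosome 3, 54755582 to 54801269), the remaining BMP member, was barely measured and was not tested. Its deposited FPKM was 0.0104, 0.0135 and 0.00983 in the controls (1 to 3 in turn) against 0.0132, 0.0350, 0.0865, 0.0551 and 0.0369 in the cKO libraries (1 to 5 in turn). On this deposited scale all cKO libraries but cKO 1, which lay within the control range, were above all controls. As scaled FPKM, cKO 1 (0.0139) also lay above the highest control (0.0127). The deposited lower bound was above 0 in 4 of 5 cKO libraries and in 0 of 3 controls. No fold change is given at this level, where a mean coverage of the transcript of 0.0863 to 0.590 stands behind the values.

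Smad4 (chromosome 18, 73639013 to 73703741), the partner of both signal branches, showed no difference beyond the spread between libraries. It measured 18.5, 16.7 and 16.3 scaled FPKM in the controls (1 to 3 in turn) and 17.9, 15.8, 20.5, 17.9 and 19.4 in the cKO libraries (1 to 5 in turn). The groups overlapped, with the lowest value in cKO 2 and the highest in cKO 3. The 95% interval of its log2 fold change of 0.08 ± 0.10 ran from -0.14 to 0.31 (limma adjusted p = 0.593).

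Of the inhibitory members, Smad6 (chromosome 9, 63953076 to 64022059), whose protein acts mainly on the BMP branch, was at 3.38, 4.01 and 3.72 scaled FPKM in the controls (1 to 3 in turn) and at 4.27, 5.44, 7.55, 4.93 and 7.39 in the cKO libraries (1 to 5 in turn). Every cKO library was above every control, by the least in cKO 1 and by the most in cKO 3 and cKO 5. The group means differed by 1.60-fold and the log2 fold change was 0.53 ± 0.17, which missed the threshold (95% interval 0.14 to 0.92, not adjusted for the number of genes; limma adjusted p = 0.0746; exact permutation p = 0.0536). Smad6 did pass in 5 of 19 alternatives. Among them were the fit with the title series as a term (0.68, adjusted p = 0.0361) and the fit without cKO 1 and cKO 2 (0.69, adjusted p = 0.0450). Because the series numbered apart holds no control, both rest on nearly the same comparison. Endothelial markers, from a cell type known for high Smad6, summed to 2.81 to 6.30 scaled FPKM in control and 3.05 to 4.83 in cKO. Among the cKO libraries that sum was highest in cKO 3 and cKO 5 (4.83 and 4.74), and control 1 was above both at 6.30. Summed neutrophil markers were highest in the same libraries, cKO 3 and cKO 5 (1966 and 1782), where S100a9 alone was at 1174 and 1158. S100a8 and Retnlg were also highest in these libraries. Csf3r and Cxcr2 of the same list were instead highest in cKO 2 (24.7 and 21.9), with cKO 5 at 9.24 and 7.23. In cKO 1, where Smad6 was lowest among the cKO libraries (4.27), the neutrophil sum was 1254. The part of endothelial cells or of neutrophils in the Smad6 values was not tested.

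Smad7 (chromosome 18, 75367365 to 75395934), which inhibits both branches, did not pass. It was at 6.06, 6.95 and 5.65 scaled FPKM in the controls (1 to 3 in turn) and at 11.0, 7.86, 6.77, 5.60 and 5.53 in the cKO libraries (1 to 5 in turn). As with Smad3, cKO 1 and cKO 2 were above all controls (mean 9.43), while the mean of the other 3 cKO libraries was 5.97. The log2 fold change was 0.18 ± 0.20 (95% interval -0.27 to 0.62; limma adjusted p = 0.570) and -0.05 without cKO 1 and cKO 2. The fold changes of Smad6 and Smad7 differed by 0.36 (exact permutation p = 0.357; adjusted p = 0.357), by 0.73 without cKO 1 and cKO 2, by 0.59 without cKO 1 alone and by 0.20 without cKO 5. Smad6 gave 35.8% to 39.7% of the summed FPKM of both in control and 27.9% to 57.2% in cKO, a wider range in cKO, which was not tested.

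**Figure D3:**
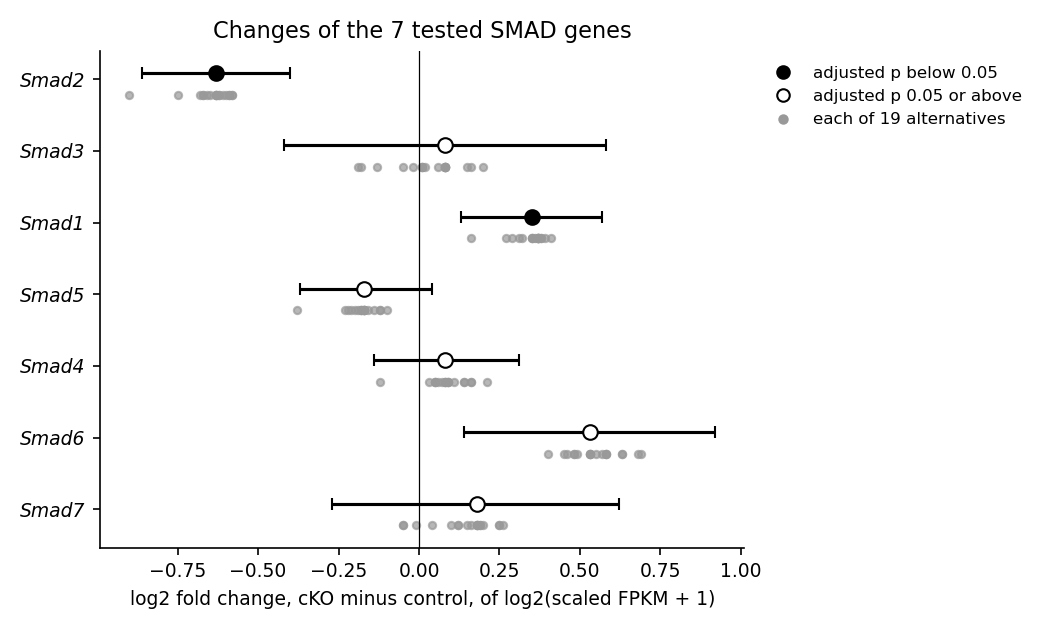
Log2 fold change of the 7 tested SMAD genes (x axis, cKO minus control on log2(scaled FPKM + 1)), with the 95% interval of the limma fit as bars, filled circles for an adjusted p below 0.05, and the value under each of 19 alternatives as grey points. Smad2 and Smad5 lie below 0 in every setting drawn, and Smad1, at 0.35, and Smad6 lie above 0. The grey points of Smad3, Smad4 and Smad7 fall on both sides of 0.

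The Smad6 promoter is shown because its gene is a textbook target of BMP SMADs and was higher in every cKO library. The window is the 250 bases before the RefSeq start (chr9:64022060-64022309, GRCm38.p6, minus strand), and capitals mark matches to GGAGCC, a GC-rich sequence that BMP SMADs are known to bind. Both strands were also searched for GGCGCC, another GC-rich sequence, for CAGAC, a short SMAD box, and for GTCTAGAC, the palindromic SMAD box, and none of the 4 holds another within it. GGAGCC occurred at 2 places in this window, starting 102 and 18 bases before the start, and the other 3 did not occur. At least 1 GGAGCC is found in 26.0% of 32851 RefSeq promoter windows of this length, GGCGCC in 9.59%, CAGAC in 42.2% and GTCTAGAC in 0.167%. The windows of Smad1 and Smad3 held none of the 4, that of Smad9 held both GC-rich sequences, and among the 3 windows of Smad5 both GC-rich sequences and the short SMAD box had a match in at least 1. Windows of Smad2, Smad4 and Smad7 are not given here, so this does not compare the whole family.
Smad6 promoter: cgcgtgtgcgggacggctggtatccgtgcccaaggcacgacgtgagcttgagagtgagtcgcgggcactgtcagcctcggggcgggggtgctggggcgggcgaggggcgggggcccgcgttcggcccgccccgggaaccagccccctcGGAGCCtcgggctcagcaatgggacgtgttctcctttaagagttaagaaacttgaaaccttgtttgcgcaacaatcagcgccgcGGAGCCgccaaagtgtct

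At the transcript level each SMAD gene was carried by 1 row. Of the 8 genes, 6 have 1 RefSeq row. Smad2 has a further row, NM_001252481, whose deposited start (76261121) lies inside that of NM_010754, and Smad5 has NM_001164041 and NM_001164042 beside NM_008541. These 3 further rows were listed at 0 in all 8 libraries, with deposited upper bounds of at most 0.00667 FPKM, so the share of the main row was 100% everywhere and no change of transcript use could be tested. An exact 0 in such tables can be a failed estimate, and 24.7% of the 3410 tested genes with several rows have only 1 row above 0. Tested over 13380 rows, of which 10.1% were called (5.29% higher, 4.81% lower), NM_010754 of Smad2 passed (limma adjusted p = 0.0101) and NM_008539 of Smad1 did not (limma adjusted p = 0.0579), with log2 fold changes equal to those of the genes.

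Among 7724 other genes with a mean scaled FPKM of at least 5, the gene whose levels across the 8 libraries were most like those of Smad3 was Smad7. The measure was the root mean square difference of log2(scaled FPKM + 1) after each gene was centred on its own mean, 0.105 for Smad7 against a median of 0.370 over all genes compared. The next were Trim16 at 0.115, a tripartite-motif protein gene, and Dock11 at 0.115, a gene for an exchange factor of small GTPases. For Dock11 the levels were 14.6, 14.8 and 13.1 scaled FPKM in the controls (1 to 3 in turn) and 20.1, 17.9, 16.0, 12.9 and 12.5 in the cKO libraries (1 to 5 in turn). In alternatives chosen after seeing the data, Smad7 ranked 65 of 7722 without cKO 1 and cKO 2, and between 1 and 7 when single libraries were left out, the 7 without cKO 1. The genes most like Smad2 were Brd7 (0.079), a bromodomain protein gene, Specc1l (0.089) and Eef2k (0.097), the kinase gene of translation elongation factor 2. Brd7 was at 24.5, 30.8 and 29.1 in the controls (1 to 3 in turn) against 20.0, 17.5, 19.3, 17.7 and 18.3 in the cKO libraries (1 to 5 in turn). Its lower level in every cKO library is part of the likeness to Smad2 by which it was chosen.

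**Figure D4:**
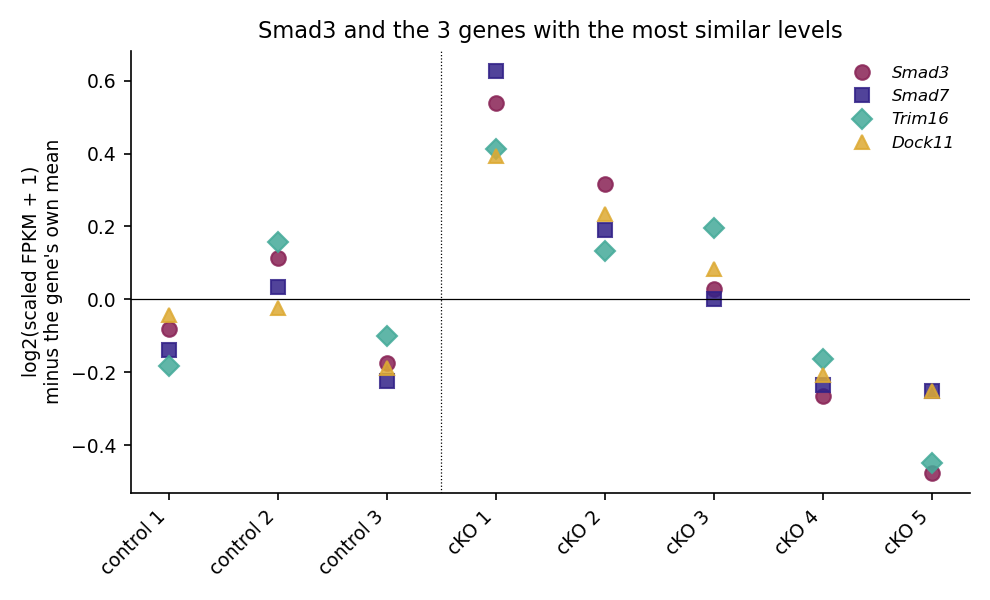
Log2(scaled FPKM + 1) minus each gene's own mean (y axis) in the 8 libraries (x axis) for Smad3 and the 3 genes most like it, with a dotted line between control and cKO. All 4 genes are highest in cKO 1 and fall below their means in cKO 4 and cKO 5, a shared pattern by which the 3 were chosen.

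Of 68 genes whose products act on or with SMAD proteins, 59 were tested, and 6 were higher and 7 lower in cKO, 22.0% against 14.3% of all tested genes. Among the 6, Zfp423 and Bambi passed the filter on low values only with the help of their cKO libraries. Among 12 ubiquitin ligases and deubiquitinases, which set the lifetime of SMADs and their receptors, 2 rose and 1 fell. Nedd4l, a ligase gene of activated SMAD2 and SMAD3, rose from 6.13 ± 0.525 to 10.3 ± 1.04 scaled FPKM (log2 fold change 0.66 ± 0.10; adjusted p = 0.00517). Its relative Wwp1 rose from 5.28 ± 0.477 to 8.07 ± 1.25 (adjusted p = 0.0256), and Wwp2 fell from 16.7 ± 0.982 to 11.8 ± 0.419 (adjusted p = 0.00676). Of 8 phosphatases and linker kinases, Ctdsp1, a phosphatase gene, fell from 31.3 ± 1.59 to 24.6 ± 2.35 (adjusted p = 0.0494), and of 9 anchors and nuclear transport genes none passed. The 2 most abundant of these, the importin genes Kpnb1 and Ipo7, were at 44.5 ± 7.89 against 39.7 ± 2.53 and at 29.4 ± 4.67 against 29.6 ± 2.26 (adjusted p = 0.528 and 0.937).

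Among 11 tested co-activators and DNA-binding partners, 2 rose and 1 fell. Kat2b, a histone acetyltransferase gene, rose from 7.69 ± 1.91 to 16.0 ± 2.47 scaled FPKM (log2 fold change 0.98 ± 0.16; adjusted p = 0.00722), all 5 cKO libraries being above the controls. Zfp423, a partner of BMP SMADs, went from 0.828 ± 0.126 to 2.64 ± 1.15 (adjusted p = 0.0323). Its controls were all below 1 scaled FPKM, so it entered the test only through the cKO libraries, where it is high. Runx1 fell from 3.52 ± 0.475 to 2.19 ± 0.443 (adjusted p = 0.0423). Of 9 tested co-repressors, 3 fell and 1 rose. Skil, which holds SMAD complexes inactive, fell from 20.8 ± 1.23 to 14.8 ± 0.787 (adjusted p = 0.00962), the anti-proliferative gene Tob1 from 18.1 ± 1.92 to 12.8 ± 0.901 (adjusted p = 0.0171) and Ski from 15.0 ± 1.02 to 10.9 ± 1.60 (adjusted p = 0.0434). The histone deacetylase gene Hdac1 rose from 3.42 ± 0.336 to 5.03 ± 0.672 (adjusted p = 0.0352), a value that is uncertain because a processed pseudogene of it is annotated and could share its reads.

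Of 10 tested receptors, Acvr1, a type I receptor gene of the BMP branch, was at 12.8 ± 1.09 scaled FPKM in control and fell to 6.72 ± 1.21 in cKO (log2 fold change -0.85 ± 0.13; adjusted p = 0.00546). Bambi, a decoy receptor gene, rose from 1.03 ± 0.293 to 2.37 ± 0.666 (adjusted p = 0.0341). Control 1 was at 0.712, below the filter, so cKO libraries were needed for Bambi to be tested. The calls of Nedd4l, Wwp2, Kat2b and Acvr1 held in all 19 alternatives, those of Skil and Tob1 were lost in 2 and that of Wwp1 in 6. Those of Zfp423, Runx1, Hdac1, Ski, Ctdsp1 and Bambi were lost in 10 to 12. The median log2 fold changes of the 6 lists lay between -0.17 and 0.00.

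**Figure D5:**
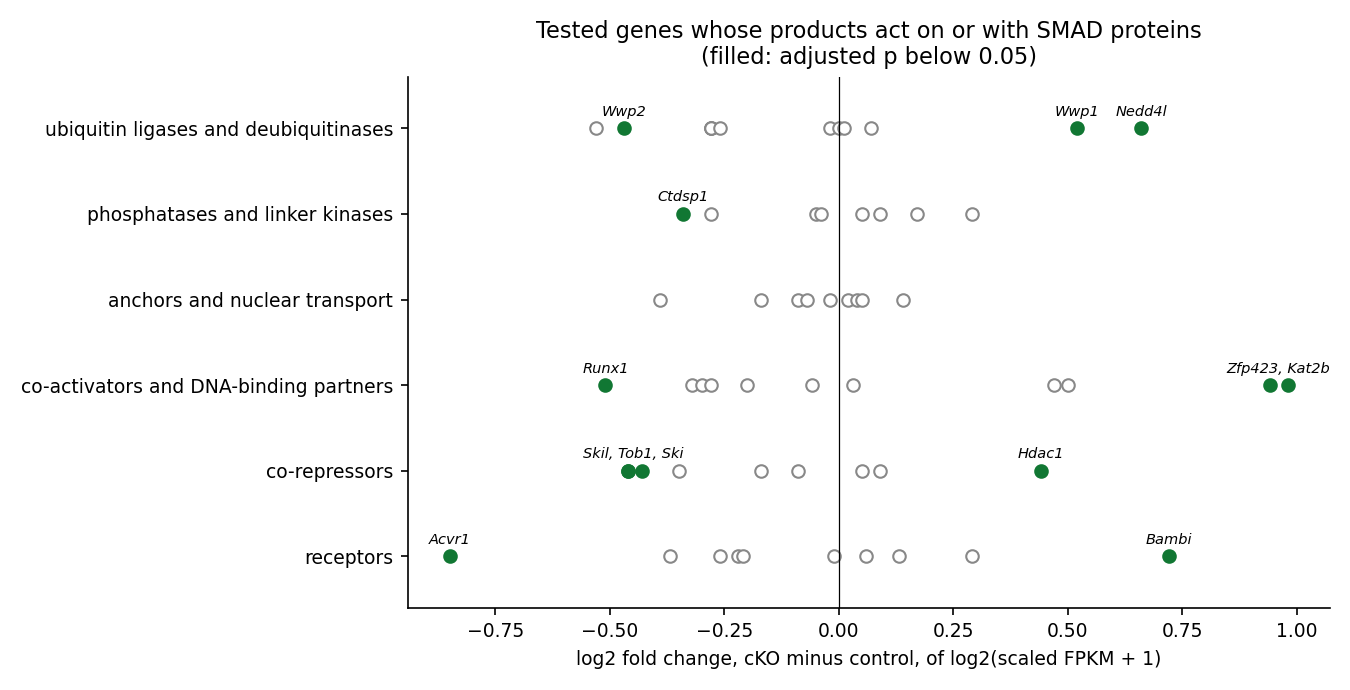
Log2 fold change (x axis, cKO minus control on log2(scaled FPKM + 1)) of the 59 tested genes in 6 lists of SMAD regulators and partners, filled and named where the adjusted p was below 0.05. The 13 filled points lie on both sides of 0, from Acvr1 at -0.85 to Kat2b at 0.98, and the anchors and nuclear transport list has none.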

How the data were processed

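RNA of mouse uterine epithelium was measured in 3 control and 5 cKO libraries, from cDNA amplified with a NuGEN Ovation kit that primes with random and poly-dT primers, per the labels. The deposited values are FPKM (fragment numbers relative to transcript length and library size) for each RefSeq transcript, with interval bounds and a status, computed by the authors in each library, per the file headers. Per the submitters' processing notes, the tools were Cufflinks, TopHat and bcl2fastq 1.8.3, with genome mm10. Other versions, the annotation release, the use of strand and how multiply mapped fragments were shared out do not appear in those notes. The deposited coverage signal was used only to describe depth. FPKM is not a count, so no count test was run.

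FPKM was summed per gene symbol (24346), and 15 genes with a status other than OK in any library were left out, none of them a SMAD gene. Each library was divided by a median-ratio factor (0.924 to 1.06) taken from genes whose FPKM reached 1 in all 8. A gene or transcript entered the test when 3 or more libraries reached a scaled FPKM of 1. The test was limma 3.58.1 (R 4.3.3, two-sided, trended variance) on log2 of scaled FPKM after adding 1, and p was adjusted over everything tested by Benjamini-Hochberg; an adjusted p below 0.05 is a call. The fit was tested on simulated data with independent noise in each gene and library, so that test does not cover shifts that genes share within a library. For each SMAD gene and for 3 gene pairs, an exact two-sided permutation test of the library labels (56 arrangements) was added. The samples were grouped by genotype label, and replicate numbers only name libraries.

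The SMAD genes, gene lists and rule for named genes were chosen with earlier results of these data known. The rule names all SMAD genes and transcripts, up to 4 called members of each list of regulators by adjusted p (or the 2 most abundant where none is called), and the 3 genes most like Smad2 and Smad3. Alternatives were unscaled FPKM, TPM, a pseudocount of 0.1, quantile normalization, a filter at FPKM 5 or none, no variance trend, array weights, a term for the title series or for stromal and muscle markers, and leaving out libraries. Sequences are from GENCODE M21 transcripts on GRCm38, the assembly that mm10 names, and from RefSeq on GRCm38.p6. Coordinates are 1-based.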

Additional observations from a re-analysis of the deposited data

Results flagged for a closer look

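Smad1 in cKO 5, at 21.0 scaled FPKM, stood apart from the other 4 cKO libraries (17.8 to 18.5): its gap to the nearest was 0.763 of the group's range, above the critical value of 0.71 for 5 samples. Chance gives such a gap in about 5% of groups, and 8 genes were looked at. Without cKO 5 the log2 fold change of Smad1 was 0.31 in place of 0.35 (limma adjusted p = 0.0740 in place of 0.0444).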

How the results depend on the processing

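No paired analysis was possible because the labels give no replicate numbers that control and cKO libraries share. The 1 SMAD gene called lower, Smad2, was called under all 19 alternatives. The number called higher was 1 in the reported fit, 0 without scaling, with TPM, with a stromal and muscle term and without the variance trend, and 2 with array weights; it was 0 to 1 when single libraries were left out, where it was 1 only without cKO 1, for Smad6. With quantile normalization, the title series as a term, or without cKO 1 and cKO 2 the number stayed at 1, but the gene was Smad6 (adjusted p 0.0376, 0.0361 and 0.0450) and not Smad1 (0.0555, 0.0653 and 0.0850). The title series term and leaving out cKO 1 and cKO 2 rest on nearly the same comparison, since the series numbered apart holds no control. At the transcript level 0 rows were called higher, 1 with the filter at FPKM 5 and 2 with array weights, and the 1 called lower became 0 with a stromal and muscle term and 0 to 1 when single libraries were left out, 0 without control 2 or control 3. Smad3 turned negative with TPM (-0.13), the title series as a term (-0.19), array weights (-0.02) and without cKO 1 and cKO 2 (-0.18), its transcript also with quantile normalization (-0.01), and without single libraries it ran from -0.05 to 0.20. Smad4 was -0.12 with TPM, and Smad7 -0.01 with TPM and -0.05 with the title series as a term or without cKO 1 and cKO 2. TPM moved the median of all tested genes to -0.20. Relative to it Smad3, Smad4 and Smad7 were at 0.08, 0.09 and 0.20. Smad1, Smad2, Smad5 and Smad6 were at 0.37, -0.69, -0.18 and 0.61 relative to it. No difference between 2 SMAD genes passed in any of 13 alternatives, and the one without cKO 1 and cKO 2 could not (smallest p 0.10). The cause of these changes was not tested. Smad9 had a deposited lower bound above 0 in 4 of 8 libraries.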

Other observations

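Of the 68 SMAD regulators and partners, 9 were too low to test. The activin and Nodal partner genes Foxh1 and Mixl1 reached at most 0.165 scaled FPKM, with Mixl1 listed at 0 in every library. The co-repressor genes Zeb1 and Zeb2 were at 0.354 ± 0.157 and 0.368 ± 0.111 in control and at 0.302 ± 0.0958 and 0.337 ± 0.133 in cKO. Of the receptors, Bmpr1b was at 0.277 ± 0.131 and 0.197 ± 0.209, the accessory receptor gene Tgfbr3 at 0.553 ± 0.325 and 0.511 ± 0.289, and Amhr2, the receptor gene of anti-Mullerian hormone, at 0.0842 ± 0.0257 and 0.0710 ± 0.0350. Acvr1c and Runx3 were the remaining genes, at 0.0723 ± 0.0422 and 0.181 ± 0.0350 in control and at 0.0364 ± 0.0246 and 0.265 ± 0.131 in cKO.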
